A study of Homo sapiens with 9 samples.

Results

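The SRC family kinases are a small group of tyrosine kinases that pass on signals from receptors at the inner face of the cell membrane. The genes described here are 7 of them (SRC, FYN, YES1, LYN, FGR, LCK and BLK) with CSK, the kinase that holds the family inactive, and SYK, a kinase that acts next to it. They were chosen by gene name and not by a measured value, although earlier results of these data were known. They make up 9 of the 19114 genes targeted in a pooled knockout screen. Each had 4 guide RNAs, so 36 of 77441 guides are described. None of the 9 differed from day 0, or between the drug and its solvent, beyond the threshold of the test. The lowest was CSK under ruxolitinib, and 1 of its 4 guides accounted for most of that score.

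The screen was run in HEL-Cas9 cells, a human erythroleukemia line with mutated JAK2 that carries the Cas9 nuclease. The cells received the Brunello guide library and were then grown in 200 nM ruxolitinib (RUX), an inhibitor of JAK kinases, or in DMSO, the solvent alone. Guide DNA was counted in 1 library at day 0, before treatment, and at day 12 in 4 libraries under DMSO and 4 under RUX. All 9 libraries share the line, the Cas9 and the guide pool, and RUX is the only labelled difference between the groups at day 12. The labels do not say that the replicates came from separately infected cultures, so each p-value below measures the spread between these libraries alone. The screen reads DNA, so the level of a kinase in these cells, and the markers of the cell type, were not measured.

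Members of the SRC family share a fatty anchor at the amino terminus, an SH3 and an SH2 domain that bind other proteins, and a kinase domain. CSK phosphorylates a tyrosine in their tail, which then folds back onto the SH2 domain and shuts the kinase, and phosphatases such as CD45 remove that mark. SRC, FYN and YES1 are made in most tissues, whereas LYN, FGR, LCK and BLK are mainly kinases of blood cells. In blood cells they phosphorylate short tyrosine motifs (ITAMs) in the tails of immune receptor subunits, and SYK then docks on those motifs through its paired SH2 domains. LYN also binds the erythropoietin receptor, which acts through JAK2.

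Reads on guides numbered 21983632 at day 0, 21783913 to 26611323 under DMSO and 19631338 to 24526993 under RUX. The member guides had 33 to 861 reads at day 0, with a median of 222, near the 235 reads of the median guide of the library. All 36 passed the minimum day 0 value of 30, although 2 of them, sg_18159 of SRC and sg_18564 of SYK, had fewer than 30 reads in at least 1 library at day 12. The library of DMSO replicate 3 was noisier than the rest, since its control guides had a standard deviation of 0.46 against 0.26 to 0.30 elsewhere. Values without it are given beside the results that it moved most.

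A guide that is lost from the pool marks a gene whose knockout slows or kills the cell. The guide ratio used below is the natural log of a guide's value at day 12 over its value at day 0, after a pseudocount of 5 and after the day 12 library was scaled so that the median control guide, which targets no gene, had a ratio of 0. The gene score is the mean ratio over the guides of a gene in 1 library. A score of 0 means growth like the controls, and the threshold for a dependency is the −0.5 that the study used. The study set it on its own beta scores, normalised for copy number, which are a different measure from the score here. Means are given ± standard deviation over 4 libraries. Scores were compared with limma across all 19112 genes with at least 2 usable guides, with p adjusted by Benjamini-Hochberg over all of them. Both comparisons with day 0 rest on the same single day 0 library, so they are not independent of each other.

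At day 12, 1 of the 9 genes (11.1%) had a mean score below −0.5 under RUX and 0 under DMSO. Over all genes, 4.63% were below −0.5 under RUX and 4.32% under DMSO, so a single gene among 9 stands near that background. The median score of the 9 was −0.11 under RUX and −0.21 under DMSO, against −0.095 and −0.085 for all genes. Against day 0, limma called 0.544% of all genes under RUX and 0.356% under DMSO. It called 0 of the 9 in either condition, with adjusted p of 0.597 to 0.992 under RUX and 0.697 to 0.999 under DMSO. No member had an unadjusted p under 0.05 there, and edgeR and DESeq2 on summed reads also called 0 of the 9. The edgeR adjusted p was 0.595 to 0.993 for RUX and 0.827 to 0.998 for DMSO.

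**Figure D1:**
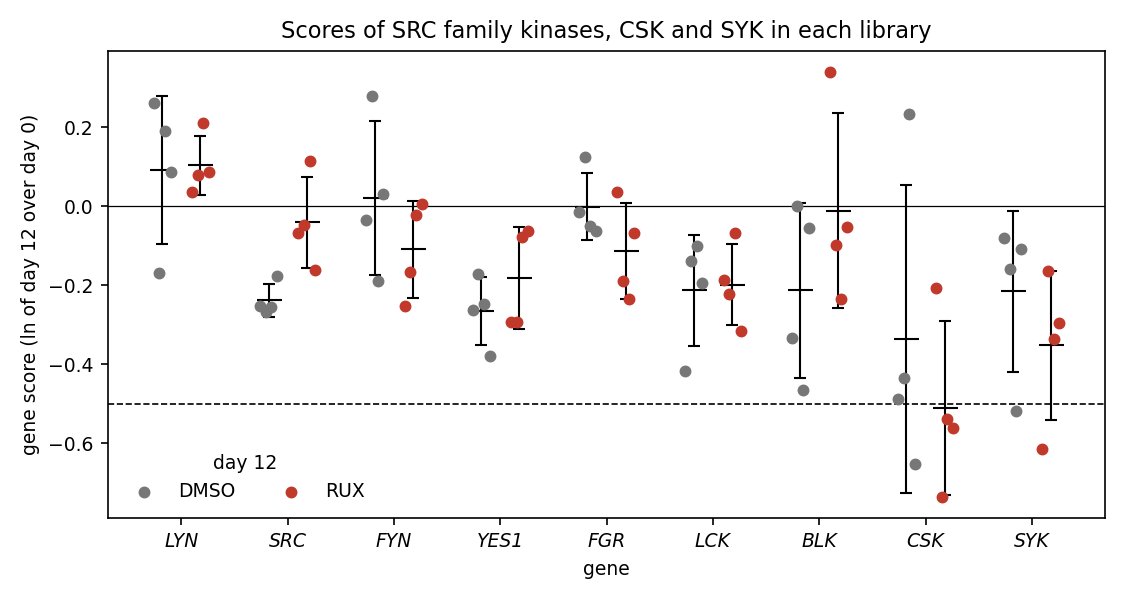
Gene score (natural log of day 12 over day 0, vertical axis) of the 9 genes in each library, with DMSO in grey and RUX in red. Long ticks are the mean and bars the standard deviation of 4 libraries, and the dashed line is the dependency threshold of −0.5. Only the RUX mean of CSK, at −0.51, lies past the line, and only for SRC do the red and grey points not overlap.

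SRC, the founding member of the family, lies at chr20:37344685-37406050 on the plus strand (GRCh38, GENCODE 44). Its scores under DMSO were −0.25, −0.27, −0.25 and −0.18 in replicates 1 to 4. Under RUX they were −0.068, −0.048, 0.11 and −0.16. The lowest RUX library was thus above the highest DMSO library, and SRC was the only 1 of the 9 whose libraries did not overlap. Over all genes, 4.94% had libraries that did not overlap. The mean was −0.041 ± 0.11 under RUX and −0.24 ± 0.041 under DMSO, that is 96.0% and 78.8% of the day 0 level. The difference of 0.20 (95% interval −0.033 to 0.43) did not pass limma, with an adjusted p of 0.558. The exact permutation test, two-sided, gave p = 0.029, which is the smallest value that 4 against 4 libraries allow, and 9 genes were compared in this way.

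The SRC difference came from 1 guide with few reads. Guide sg_18159 had a deposited normalised read count of 49.4 at day 0 (49 reads). It had 36.8, 35.7, 10.3 and 47.5 under DMSO and 102.0, 86.1, 80.1 and 96.3 under RUX. All 4 RUX libraries were above day 0 and all 4 DMSO libraries were below it. The ratio was 0.49 ± 0.10 with RUX and −0.52 ± 0.55 with DMSO. The difference of 1.01 (95% interval 0.22 to 1.80) ranked 47 from the highest among the tested guides, which were 75434 targeting and 990 control guides. It did not pass limma over those guides (adjusted p = 0.365). The other 3 SRC guides did not share its change of sign from RUX to DMSO in all libraries. Guide sg_18158 was low in both conditions, at −0.33 ± 0.20 under RUX and −0.60 ± 0.20 under DMSO, with a smaller difference of 0.26 in the same direction (exact permutation p = 0.143). Guides sg_18157 and sg_18160 had lower means under RUX than under DMSO, with differences of −0.25 and −0.23. With a minimum day 0 value of 100, which leaves sg_18159 out, the SRC difference turned to −0.073, and on summed reads it was −0.055 by edgeR and −0.017 by DESeq2.

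FYN, a ubiquitous member that also serves in T cells and at the myelin sheath, lies at chr6:111660332-111873452 on the minus strand. Its scores were −0.036, 0.28, −0.19 and 0.031 under DMSO and −0.25, −0.17, −0.023 and 0.0066 under RUX. The groups overlapped, and both means lay within 1 standard deviation of 0, at −0.11 ± 0.12 with RUX and 0.021 ± 0.19 with DMSO. The difference of −0.13 went to −0.20 without DMSO replicate 3 and did not pass limma (adjusted p = 0.748 with it and 0.755 without it). Guide sg_6685 had lower values under RUX, with normalised read counts of 162.7, 142.6, 188.6 and 224.4 against 380.1, 257.3, 193.1 and 302.2 under DMSO and 224.8 at day 0. 1 DMSO library, replicate 3, lay inside the RUX range, and the difference of −0.44 did not pass limma (adjusted p = 0.523). Without that library it was −0.56 (adjusted p = 0.607).

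YES1, closest to SRC and FYN among the ubiquitous members, lies at chr18:721588-812546 on the minus strand. Its scores were −0.26, −0.17, −0.25 and −0.38 under DMSO and −0.29, −0.29, −0.077 and −0.064 under RUX. All 8 libraries were below 0, and the groups overlapped. The 8 values share 1 day 0 library, and over all genes only 28.5% had a mean score above 0 under RUX and 31.5% under DMSO. The means were −0.18 ± 0.13 under RUX and −0.26 ± 0.086 under DMSO, 83.4% and 76.8% of the day 0 level, with adjusted p of 0.792 and 0.697 from limma. Guide sg_20381 was the lowest under both conditions, at −0.48 ± 0.27 under RUX and −0.43 ± 0.15 under DMSO, whereas sg_20384, with 684 reads at day 0, stayed near 0 at −0.071 and 0.12.

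LYN, the main SRC family kinase of myeloid and B cells, lies at chr8:55879835-56014169 on the plus strand. Its scores were 0.26, −0.17, 0.19 and 0.087 under DMSO and 0.036, 0.079, 0.21 and 0.087 under RUX. LYN was the highest of the 9 in both conditions, at 0.10 ± 0.075 under RUX and 0.092 ± 0.19 under DMSO, or 111% and 110% of the day 0 level. Its score was above that of 88.1% of all genes under RUX, but it did not pass limma against day 0 in either condition (adjusted p = 0.888 and 0.910). The RUX libraries lay inside the DMSO range, and the difference was 0.011 (95% interval −0.23 to 0.26), so a difference of more than about 0.26 in either direction lay outside the interval.

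The flat LYN mean hid guides that went opposite ways. Guide sg_10904 had a normalised read count of 297.3 at day 0. It had 261.1, 367.2, 317.8 and 399.0 under DMSO and 679.9, 529.6, 788.0 and 393.3 under RUX. In the RUX group 3 libraries were above every DMSO library and the remaining 1 was not. The difference of 0.53 (95% interval 0.14 to 0.93) did not pass limma over all guides (adjusted p = 0.320). Guide sg_10903 stood on the other side, with a ratio of −0.49 ± 0.41 under RUX and −0.18 ± 0.20 under DMSO. The standard deviation between the 4 guide means of LYN was 0.44 under RUX and 0.25 under DMSO.

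FGR, a kinase of granulocytes and monocytes, lies at chr1:27612064-27635185 on the minus strand. Its scores were −0.016, 0.12, −0.049 and −0.063 under DMSO and 0.036, −0.19, −0.23 and −0.067 under RUX. The groups overlapped. The mean was −0.11 ± 0.12 with RUX and −0.00089 ± 0.085 with DMSO. The difference of −0.11 (95% interval −0.34 to 0.12) did not pass (exact permutation p = 0.200). Without RUX replicate 1 it was −0.16 and the groups no longer overlapped, but only narrowly. The highest RUX library was then at −0.067 and the lowest DMSO library at −0.063. The share of all genes without overlap was not computed in that setting. Its guides were the most alike of the 9 genes under DMSO, with a standard deviation of 0.17 between guide means.

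LCK, the kinase that starts T cell receptor signaling, lies at chr1:32251244-32286165 on the plus strand. Its scores were −0.42, −0.14, −0.10 and −0.20 under DMSO and −0.19, −0.22, −0.067 and −0.32 under RUX. All 8 were below 0, as the mean score was for most genes, and the groups overlapped. The means of −0.20 ± 0.10 with RUX and −0.21 ± 0.14 with DMSO were 82.0% and 80.8% of the day 0 level. The difference was 0.014 (95% interval −0.24 to 0.27). Guide sg_10532 was the lowest of the gene, at −0.64 ± 0.24 under RUX and −0.47 ± 0.49 under DMSO. Guide sg_10531 went the other way, with normalised read counts of 299.0, 306.4, 542.6 and 317.3 under RUX against 172.7, 277.6, 166.9 and 296.7 under DMSO and 233.8 at day 0. Its groups were next to each other as deposited and overlapped after scaling to the control guides, where the difference of 0.45 did not pass limma (adjusted p = 0.491).

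BLK, a B cell kinase, lies at chr8:11486894-11564599 on the plus strand. Its scores were −0.33, 0.00098, −0.46 and −0.056 under DMSO and 0.34, −0.098, −0.23 and −0.052 under RUX. RUX replicate 1 was the highest of the 8, and the groups overlapped. The mean was −0.011 ± 0.25 with RUX and −0.21 ± 0.22 with DMSO. The difference of 0.20 (95% interval −0.11 to 0.51) was as large as that of SRC but within the spread between libraries (exact permutation p = 0.257). It was 0.085 without RUX replicate 1 and 0.12 without DMSO replicate 3. Guide sg_1737 had normalised read counts of 191.6, 383.6, 148.1 and 263.9 under DMSO and of 459.7, 386.1, 369.2 and 421.6 under RUX, with 393.1 at day 0. The RUX libraries stayed near day 0 and the DMSO libraries were at or below it, with an overlap of 1 library. The difference of 0.54 did not pass limma (adjusted p = 0.404).

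CSK, the inhibitor of the family, lies at chr15:74782080-74803197 on the plus strand. Its scores were −0.21, −0.73, −0.54 and −0.56 under RUX in replicates 1 to 4. They were −0.49, −0.43, 0.23 and −0.65 under DMSO. The RUX libraries were all below 0, and 3 of the 4 were below −0.5, whereas DMSO replicate 3 stood apart from the other DMSO libraries on the positive side. The mean under RUX was −0.51 ± 0.22, 60.0% of the day 0 level and rank 849 from the lowest of 19112 genes, and its adjusted p from limma was 0.597. The mean under DMSO was −0.34 ± 0.39, 71.5% of the day 0 level (adjusted p = 0.772). Without DMSO replicate 3 the DMSO mean was −0.53, also below the threshold, and the difference between RUX and DMSO went from −0.17 (95% interval −0.57 to 0.22) to 0.015.

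The low score of CSK was carried by guide sg_4051. Its normalised read count was 237.9 at day 0. It was 120.2, 46.3, 35.5 and 47.6 under RUX and 56.9, 152.3, 313.1 and 39.3 under DMSO. All 4 RUX libraries were below day 0, and the DMSO libraries ranged from far below to above it. Its ratio was −1.46 ± 0.49 under RUX, or 23.3% of day 0, and −0.87 ± 0.88 under DMSO. Without DMSO replicate 3 the DMSO mean was −1.23, and the difference between RUX and DMSO went from −0.59 to −0.23. The other 3 guides had RUX means of −0.18, −0.082 and −0.32. Without sg_4051 the score of CSK was −0.19 under RUX and −0.16 under DMSO, and neither was below −0.5. The standard deviation between its guides, 0.64 under RUX, was the largest of the 9 genes. The off-target sites and cutting rates of these guides were not measured, and their part in the split between guides was not tested.

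SYK, which binds phosphorylated ITAMs, lies at chr9:90801787-90898549 on the plus strand, on the same chromosome as JAK2. Its scores were −0.080, −0.16, −0.52 and −0.11 under DMSO and −0.61, −0.16, −0.34 and −0.30 under RUX. All 8 libraries were below 0, as the mean score was for most genes. The groups overlapped only through DMSO replicate 3, the noisier library. The mean was −0.35 ± 0.19 under RUX, 70.3% of the day 0 level and rank 2026 from the lowest of 19112 genes. It was −0.22 ± 0.20 under DMSO. Neither passed limma against day 0 (adjusted p = 0.642 and 0.810), and the difference of −0.14 (95% interval −0.44 to 0.16) did not pass either (exact permutation p = 0.314). Without DMSO replicate 3 the difference was −0.24, which also did not pass limma (adjusted p = 0.736), whereas without RUX replicate 1 it was −0.050. The groups did not overlap without DMSO replicate 3, but the share of all genes without overlap was not computed there.

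Among the guides of SYK, sg_18561 was low in both conditions. It had a normalised read count of 555.4 at day 0. It had 285.3, 438.5, 255.0 and 383.5 under DMSO and 221.2, 468.4, 326.6 and 394.4 under RUX. All 8 libraries were below day 0, and the means were nearly equal at −0.57 ± 0.26 under DMSO and −0.56 ± 0.32 under RUX. Guide sg_18564 had only 33 reads at day 0, and its mean of −0.52 ± 0.44 under RUX rests on 10 to 40 reads a library. The 2 remaining guides of SYK stayed between −0.22 and 0.088.

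**Figure D2:**
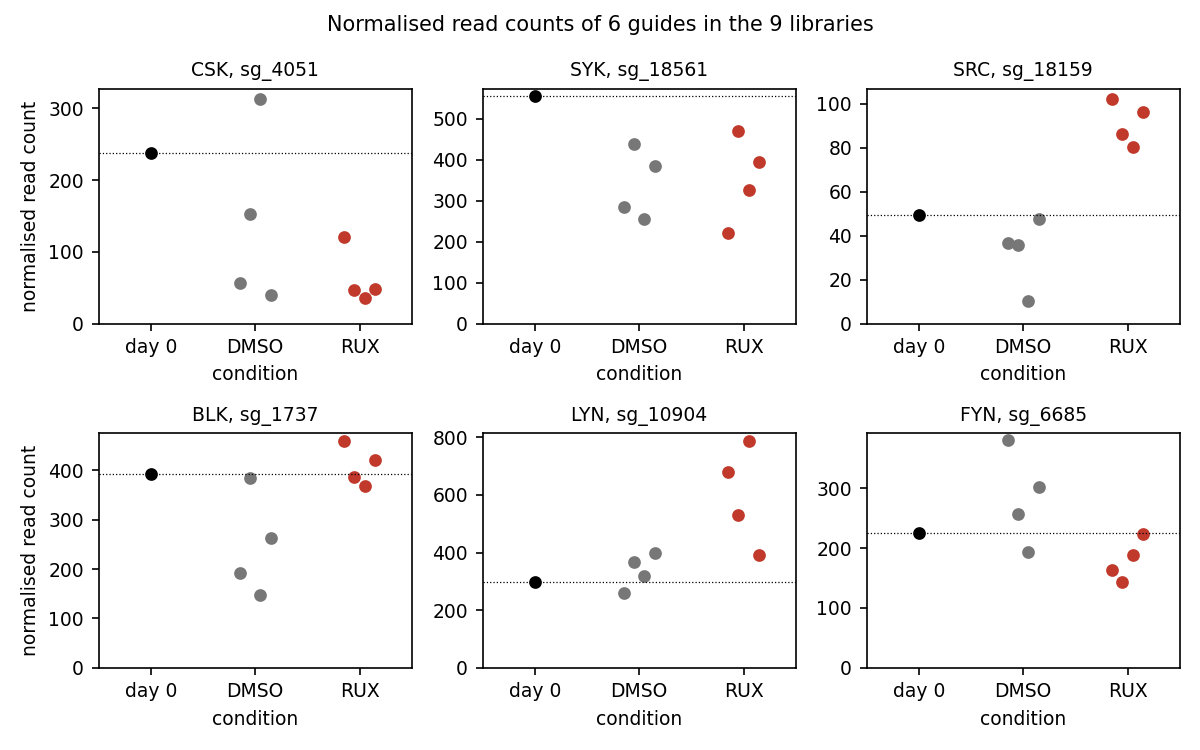
Normalised read count as deposited (vertical axis, starting at 0) of 6 guides in the 9 libraries, with day 0 in black and as the dotted line, DMSO in grey and RUX in red. The guide of SRC is the only 1 of the 6 whose RUX and DMSO points do not overlap, at 80.1 to 102.0 against 10.3 to 47.5, and the guide of CSK is below day 0 in every RUX library but not in DMSO replicate 3.

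Taken by guide, 4 of the 36 member guides (11.1%) had a mean ratio below −0.5 under RUX and 7 (19.4%) under DMSO, and 2 were below in both, sg_4051 of CSK and sg_18561 of SYK. Among all targeting guides 11.8% were below −0.5 under RUX and 11.8% under DMSO. Of 990 control guides, 8 (0.808%) were below under RUX and 30 (3.03%) under DMSO. The 4 under RUX belonged to CSK, LCK and SYK, with 2 from SYK. The 7 under DMSO belonged to SRC, BLK, CSK and SYK, and only SYK had 1 alone. Without DMSO replicate 3, the count under DMSO went from 7 to 4. No gene of the 9 had 3 or more guides below −0.5 in a condition.

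**Figure D3:**
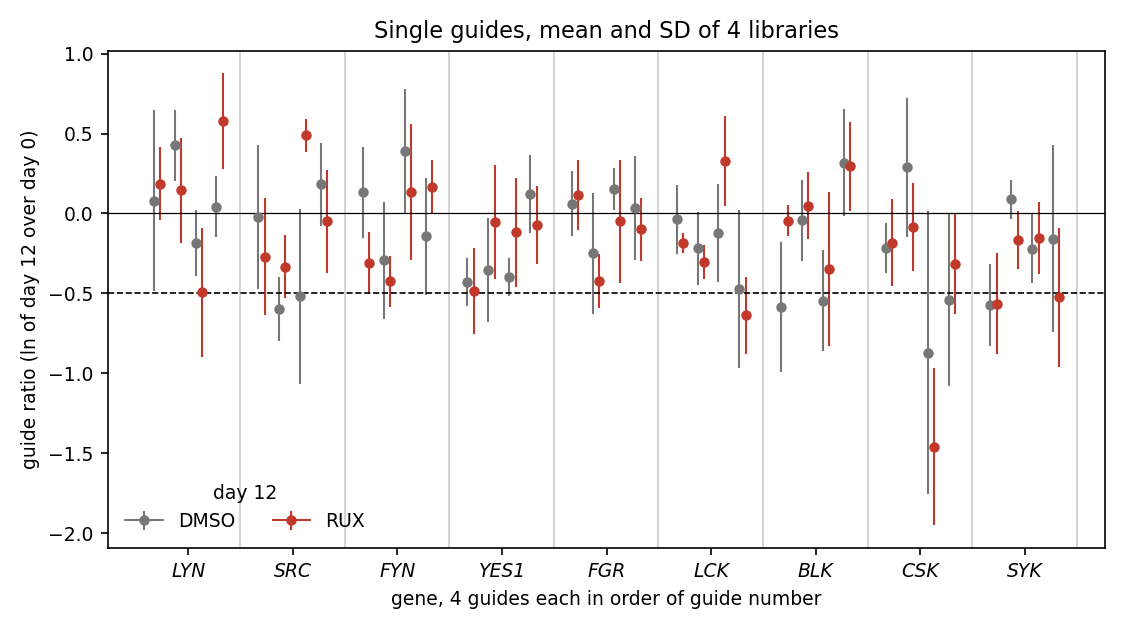
Guide ratio (natural log of day 12 over day 0, vertical axis) of the 36 guides, 4 a gene in order of guide number, with points as means and bars as standard deviations of 4 libraries, DMSO in grey and RUX in red. The dashed line is −0.5. The third guide of CSK stands lowest, at −1.46 under RUX and −0.87 under DMSO, and the third guide of SRC shows the widest gap between the conditions, at 1.01.

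Between RUX and DMSO, limma called 0 of the 9 genes, with adjusted p of 0.558 to 0.986. It called 0 of all 19112 genes (0%), of which 1709 had an unadjusted p under 0.05, and SRC was the only 1 of the 9 among those. On summed reads, edgeR called 0.0262% and DESeq2 0.162% of all genes and 0 of the 9, with adjusted p of 0.511 to 0.917 and 0.521 to 0.987. The mean scores of 4 of the 9 were lower under RUX (FYN, FGR, CSK and SYK), and by edgeR 7 were, since the differences of SRC, YES1 and LCK changed sign. Of the guides, limma called 0 of 36 against 0.00928% of all targeting guides, and 5 of 36 had an unadjusted p under 0.05 (against 6705 of 75434). Only sg_18159 (2.78%) had libraries that did not overlap, against 4.64% of all targeting guides.

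**Figure D4:**
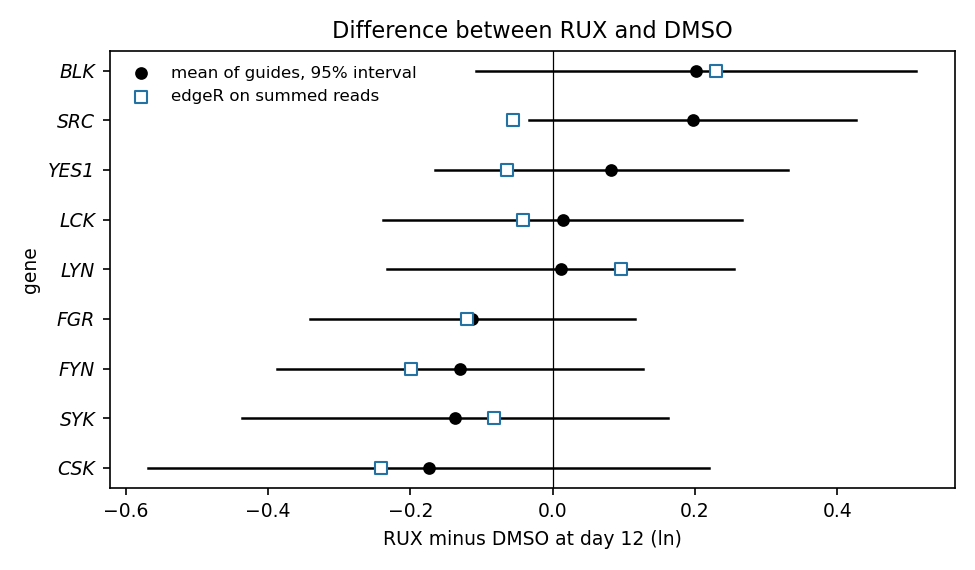
Score under RUX minus score under DMSO at day 12 (natural log, horizontal axis) for the 9 genes, ordered by size. Black points are means over guides with 95% intervals from limma's standard error and open squares are edgeR estimates on summed reads. The intervals use 6 residual degrees of freedom and are wider than limma's test implies. That test gave SRC an unadjusted p of 0.049. Every interval includes 0, with CSK lowest at −0.17 and BLK highest at 0.20, and the squares of SRC, YES1 and LCK lie on the other side of 0 from their points.

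By level, the order under RUX from the lowest was CSK, SYK, LCK, YES1, FGR, FYN, SRC, BLK and LYN. No neighbouring genes in it differed by more than the larger of their standard deviations. Under DMSO the order was CSK, YES1, SRC, SYK, BLK, LCK, FGR, FYN and LYN. There a single step exceeded the larger standard deviation between libraries, the 0.21 between LCK and FGR, whose libraries did not overlap. That spread leaves out the noise of the single day 0 library. The standard errors from limma against day 0 under DMSO were 0.16 for LCK and 0.15 for FGR, and no test compared genes with each other. The 3 ubiquitous members stood at −0.041, −0.11 and −0.18 under RUX, inside the range of −0.20 to 0.10 of the 4 blood cell members.

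Cutting by Cas9 slows cells where a region is present in many copies, so each score was set beside the genes around it. The median RUX score of the 20 nearest genes was −0.12 around CSK and −0.12 around SYK, and 0 and 1 of them were below −0.5. Relative to those neighbours CSK stood at −0.39 under RUX and −0.22 under DMSO, and SYK at −0.23 and −0.046. The neighbours of SRC were the lowest of the 9 sets under RUX, with a median of −0.22 and 3 of 20 below −0.5, and SRC stood 0.18 above them. The copy number of HEL cells was not used here, and its part in the scores was not tested.

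The 3 genes with scores most like those of CSK, by the mean absolute difference over 8 libraries among 19082 genes with at least 3 guides, were VEZT at 0.126, NPIPA5 at 0.127 and LAMTOR2 at 0.135. VEZT encodes a protein of cell junctions, and LAMTOR2 is a subunit of the complex that recruits mTORC1 to the lysosome. Their RUX means were −0.39, −0.50 and −0.53.

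Other genes of the pathway were read from lists of known partners. Among 14 other kinases of the SRC family or close to it, 0 were below −0.5 in either condition and 0 passed limma in any comparison. Their median was −0.0046 under RUX and −0.021 under DMSO. The lowest under RUX was ABL2, a kinase of the cytoskeleton, at −0.24 ± 0.11, and the highest BTK, the B cell kinase downstream of SYK, at 0.23 ± 0.087. In this list 2 of 14 genes had libraries that did not overlap between RUX and DMSO, against 4.94% of all genes. MATK, a relative of CSK that is named because of its value, had 0.16 ± 0.074 under RUX and 0.33 ± 0.13 under DMSO.

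Of 13 phosphatases, adaptors and ligases that set SRC family activity, 0 passed limma and 0 were below −0.5 under DMSO. Under RUX 1 was below −0.5, against 4.63% of all genes. This was PTPN11, the phosphatase SHP2 that relays receptor signals to RAS, at −0.62 ± 0.29 under RUX and −0.36 ± 0.24 under DMSO, with 3 guides and an adjusted p of 0.387 from limma under RUX. The highest under RUX was CBL, a ubiquitin ligase that removes activated receptors, at 0.16 ± 0.19. The list had a median of −0.13 under RUX and −0.035 under DMSO.

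Of 22 partners of SYK (ITAM carriers, receptors, adaptors and effectors), 0 were below −0.5 and 0 passed limma. The median was −0.061 under RUX and 0.020 under DMSO. The lowest under RUX was VAV2, an exchange factor for small GTPases, at −0.36 ± 0.13, and the highest SH3BP2, an adaptor, at 0.11 ± 0.11. In 4 of the 22 the libraries did not overlap, against 4.94% of all genes, and in each the RUX libraries were the lower. They were TYROBP, an ITAM carrier, with a difference of −0.24, CD79A, the ITAM chain of the B cell receptor, with −0.25, BLNK, the adaptor of SYK in B cells, with −0.30, and VAV2, with −0.31. Apart from VAV2 they are named because of their values, and the adjusted p from limma ran from 0.441 to 0.511 over the 4.

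Of 21 substrates and scaffolds of the family, 3 were below −0.5 under RUX and 2 under DMSO, and 2 in both, against 4.63% and 4.32% of all genes under RUX and DMSO. None passed limma (0 of 21). GRB2, the adaptor that links receptors to RAS, had −0.73 ± 0.23 under RUX and −0.88 ± 0.22 under DMSO (adjusted p = 0.240 and 0.119 from limma). STAT5B, a transcription factor that JAK2 activates, had −0.67 ± 0.090 and −0.74 ± 0.23. The third under RUX was its paralog STAT5A, at −0.57 ± 0.20 against −0.41 ± 0.19 under DMSO, named because of its value. The highest under RUX was GAB2, a docking protein, at 0.26 ± 0.21. The median of the list was −0.25 under RUX and −0.13 under DMSO.

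Among 9 genes for the lipid anchoring and folding of SRC family kinases, 0 were below −0.5 under RUX and 2 under DMSO, and 0 passed limma. Over all genes, 4.63% were below −0.5 under RUX and 4.32% under DMSO. NMT1, the enzyme that attaches the myristoyl anchor, had −0.48 ± 0.11 under RUX and −0.74 ± 0.19 under DMSO. The other, UNC119, a carrier of myristoylated proteins, had −0.35 ± 0.20 and −0.56 ± 0.23 and is named because of its value. NMT1 and the chaperones act on many proteins besides the SRC family. The highest of the list under RUX was HSP90AA1, a stress-induced chaperone, at −0.051 ± 0.14.

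Some genes upstream were called by limma, unlike the members. Of 8 genes of erythroid and myeloid cells, 7 receptors or receptor subunits and JAK2, 2 were below −0.5 in both conditions. The same 2 were lower than day 0 by limma under RUX and under DMSO. Over all genes, 4.63% were below −0.5 under RUX and 4.32% under DMSO, and limma called 0.544% and 0.356%. Copy number was not used here, and its part in these scores was not tested. JAK2 had −1.23 ± 0.22 under RUX and −1.10 ± 0.082 under DMSO, with 3 guides (adjusted p = 0.016 and 0.041). The highest under RUX was IL3RA, the alpha chain of the interleukin-3 receptor, at 0.26 ± 0.19.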

How the data were processed

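The 9 genes and the lists of partners were chosen with earlier results of these data known. Reads per guide were counted by the authors with MAGeCK and deposited as a signal, that is whole reads multiplied by a factor of each library (100% of values were whole within 0.001 after division). For day 0 and RUX replicate 1 that factor is close to 1. The authors' beta scores, normalised for copy number, were not used here. No column was left without a sample (0 unmapped).

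Guides with a day 0 value of at least 30 entered ratios with a pseudocount of 5, scaled to the control guides, and genes needed 2 such guides. Because of the pseudocount, ratios understate changes of guides with few reads. The 3 conditions were fitted in limma 3.58.1 (R 4.3.3) with a mean-variance trend and no block, and adjusted p under 0.05 was called. The spread of the single day 0 library was taken from the libraries at day 12. Intervals took limma's standard error with 6 residual degrees of freedom, so they are wider than limma's test implies. Reads summed per gene were tested with edgeR 4.0.16 (quasi-likelihood) and DESeq2 1.42.0, and exact permutation tests used all 70 divisions of 8 libraries into 4 and 4. The limma, edgeR and DESeq2 comparisons of RUX with DMSO were checked on simulated reads. The comparisons with day 0, the permutation tests and the intervals were not. Positions are from GENCODE 44 (GRCh38), in which 17949 genes were found by symbol, 983 by an earlier symbol and 182 not at all.

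Named genes were all members, JAK2, the genes of each list below −0.5 in both conditions or past limma, the lowest and highest of each list under RUX, and the 3 genes most like the lowest member. Single results of 2 genes are left out here but stay in the counts. Alternatives were other scalings, pseudocounts of 1 and 20, other day 0 minimums, the median over guides, the farthest guide left out, neighbouring genes subtracted, no trend, a replicate block, a stricter threshold, each library left out, edgeR and DESeq2.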

Additional observations from a re-analysis of the deposited data

Results flagged for a closer look

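Over the 36 guides and 9 genes, 90 groups of 4 libraries were checked for a library far from the other 3, and 4 stood out, where chance gives about 4.5. Guide sg_6320 of FGR had a ratio of −0.39 in RUX replicate 3 against −0.036 to 0.027 in the other RUX libraries. Guide sg_10531 of LCK had 0.75 in RUX replicate 3 against 0.16 to 0.22. Guide sg_1739 of BLK had 0.37 in RUX replicate 1 against −0.62 to −0.51. Guide sg_18564 of SYK had −1.03 in DMSO replicate 3 against 0.068 to 0.21, and this guide had 33 reads at day 0. Guide sg_18159 of SRC differed in sign between the conditions, above 0 in all 4 RUX libraries and below 0 in all 4 DMSO libraries, with a difference of 1.01 that did not pass limma (adjusted p = 0.365).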

How the results depend on the processing

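In 23 alternative settings, 0 of 621 comparisons of a member gene had an adjusted p under 0.05. The smallest for CSK under RUX was 0.362 and for the SRC difference 0.484. The count of members below −0.5 under RUX, 1 by the score as given, was 0 with a threshold of −1, with scaling to library totals or over all guides, with the values as deposited, with a pseudocount of 20, with the median over guides, with the farthest guide left out, with neighbouring genes subtracted, and with edgeR, edgeR with TMM and DESeq2. With each library left out it ran from 0 to 1 (0 without RUX replicate 2 or 4), and under DMSO from 0 to 1 (1 without DMSO replicate 3). The count of members whose libraries did not overlap was 0 with neighbours subtracted or guides summarised by their median. It was also 0 with a day 0 minimum of 100 or a pseudocount of 20. With a library left out it was 1 to 2. The share of all genes without overlap was not computed in these settings. Member guides below −0.5 under RUX numbered 2 with scaling to totals or over all guides, and 3 to 5 with a library left out. Under DMSO they numbered 4 with scaling over all guides or a pseudocount of 20, and 4 to 7 with a library left out.

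Several scores near 0 changed sign. SRC under RUX was 0.024 (totals), 0.036 (all guides), 0.037 (as deposited), 0.056 (farthest guide left out) and 0.11 (neighbours). BLK under RUX was 0.055, 0.067 and 0.067 with those 3 scalings, 0.039 (median over guides), 0.0047 (neighbours), 0.038 (edgeR), 0.11 (TMM) and 0.10 (DESeq2). FGR under DMSO was 0.021, 0.064 and 0.065 with those scalings, 0.00037 (pseudocount 20), 0.034 (median), 0.082 (farthest guide), 0.017 (neighbours), 0.025 (edgeR), 0.063 (TMM) and 0.059 (DESeq2). FYN under DMSO was −0.035 (median), and SRC under DMSO was 0.0071 (TMM) and 0.0033 (DESeq2). The difference between RUX and DMSO turned for SRC to −0.073 (day 0 value of at least 100), −0.055 (edgeR), −0.016 (TMM) and −0.017 (DESeq2), for YES1 to −0.064, −0.027 and −0.028 with those 3 tools, and for LCK to −0.052 (median), −0.0019 (neighbours), −0.041, −0.0056 and −0.0066 (the 3 tools). With a library left out the ranges that crossed 0 were −0.13 to 0.063 for BLK under RUX, −0.042 to 0.020 for FGR and −0.064 to 0.091 for FYN under DMSO, and for the difference −0.076 to 0.067 for LYN, −0.053 to 0.054 for LCK and −0.28 to 0.015 for CSK. The cause was not tested. Scaling over all guides raised the median of all genes by 0.11 under RUX on the log2 scale. Under each of 4 scalings, 6 of the 9 members were below the RUX median of all genes and 6 below the DMSO median. These were not the same genes. With scaling to the control guides, FYN and FGR were below the median only under RUX, and SRC and BLK only under DMSO.

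Replicate numbers did not pair the libraries. Same-numbered DMSO and RUX libraries had deviations that correlated at −0.13 to 0.034, and 1 of 8 libraries correlated best with its own number. With a replicate block, 0 members and 0 member guides passed. At 33 to 861 reads a guide at day 0, changes of guides with few reads are the least certain.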
